A study of Homo sapiens with 4 samples.

Results

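Zinc handling genes were followed in LNCaP cells, an established human prostate cancer cell line that responds to androgen, with and without overexpression of HOXD13, a homeobox transcription factor. Members were taken by gene symbol with no threshold on measured values, in a family chosen with earlier results of these data known: the SLC30A zinc exporters, the SLC39A zinc importers, the metallothioneins and MTF1, the zinc-sensing transcription factor. The rule found 30 genes among the 19205 in the deposited table, namely 9 SLC30A genes, 13 SLC39A genes, 7 metallothionein copies and MTF1. Polyadenylated RNA was sequenced in 2 libraries of control cells, given as EV and as empty vehicle in the labels and called empty vector here, and in 2 libraries of cells overexpressing HOXD13. All libraries came from cells kept in RPMI-1640 medium that held fetal bovine serum, penicillin and streptomycin, and lentiviral infection with puromycin selection is given for the controls too. The labels give neither the promoter that drives HOXD13 nor whether the cells are 1 clone. The labels do not say whether the libraries of a group came from separate cultures, so p-values reflect how much these libraries varied, and that variation may be technical.

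Zinc is moved across membranes by transporters of opposite direction. SLC30A proteins take zinc out of the cytosol, to the outside or into vesicles and organelles, and SLC39A proteins bring it into the cytosol from outside or from organelles. Metallothioneins are small cysteine-rich proteins that hold zinc, copper and cadmium, and their genes are classical targets of MTF1, which binds metal response elements in their promoters when zinc is high. Normal prostate epithelium is known for its high zinc content, which is lower in prostate cancer.

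Total expected counts were between 6881110 and 8530487 per library. HOXD13 was counted 88 and 104 times in the overexpressing cells and 0 times in either control library, in the direction of the labels. The 8 luminal prostate markers, among them KLK3 and KLK2, were all expressed, at a summed 3344 and 3370 FPKM with the empty vector and 4720 and 4833 FPKM with HOXD13. FPKM counts fragments relative to transcript length and library size, so levels can be compared between genes. Of these markers 6 were higher, 1 was lower and 1 was not called. The part of this shift in the differences below was not tested. Fibroblast markers summed to 6.15 to 7.13 FPKM over the 4 libraries. Endothelial markers summed to 2.91 and 3.13 FPKM in controls, against 4.13 and 4.26 with HOXD13, and VWF was called higher (log2 fold change 0.52, edgeR adjusted p = 0.00193). Most of this sum was VWF, at 2.26 to 3.46 FPKM. PECAM1, at 0.60 to 1.04 FPKM, overlapped between groups and was not called (0.17, edgeR adjusted p = 0.758). KDR was at 0 to 0.12 FPKM and was not tested, and 1 of the 4 endothelial markers was at 0 in all libraries. Basal markers summed to 1.24 and 1.83 FPKM in controls, against 3.47 and 3.96 with HOXD13, and KRT14 was called higher (1.27, adjusted p = 0.00504). Most of this sum was KRT14, at 1.24 to 3.78 FPKM on 14 to 53 counts per library. CD44 was at 0 to 0.18 FPKM and was not tested, and 2 of the 4 basal markers were at 0 in all libraries. The part of the VWF and KRT14 differences in those of the members below was not tested either. Leukocyte markers summed to 37.4 to 43.8 FPKM. Most of this was LYZ, at 29.6 to 35.2 FPKM, with CD68 at 6.85 to 9.65 and PTPRC at 0.80 to 1.64 FPKM. None of these was called, and CD3E was at 0 in all libraries. RNA was measured in bulk, so fewer cells with a transcript and less of it per cell cannot be told apart.

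Of the 30 members, 25 passed the filter on low counts and were tested. With HOXD13, 6 of the 25 were called higher and 1 was called lower, and 18 were not called (edgeR's quasi-likelihood method, with p adjusted over 14111 genes and a threshold of 0.05). Among all genes tested, 16.0% were called, 7.91% higher and 8.11% lower, against 24% of the tested members called higher. All 6 rises were transporters, 5 of them importers of the SLC39A family, and the fall was MTF1. Calls are more frequent at high counts. Among genes with a mean of at least 100 counts, a bound chosen after the data were seen, 9.92% were called higher and 11.1% lower, and 6 of the 20 members at that depth were called higher. The median log2 fold change of HOXD13 minus empty vector was 0.13 over the tested members and 0.00 over all genes tested. Both HOXD13 libraries lay above both empty-vector libraries in FPKM for 13 of the 25 tested members, against 29.3% of all genes tested. They lay below for 3 of the 25, against 24.8% of all genes tested.

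**Figure D1:**
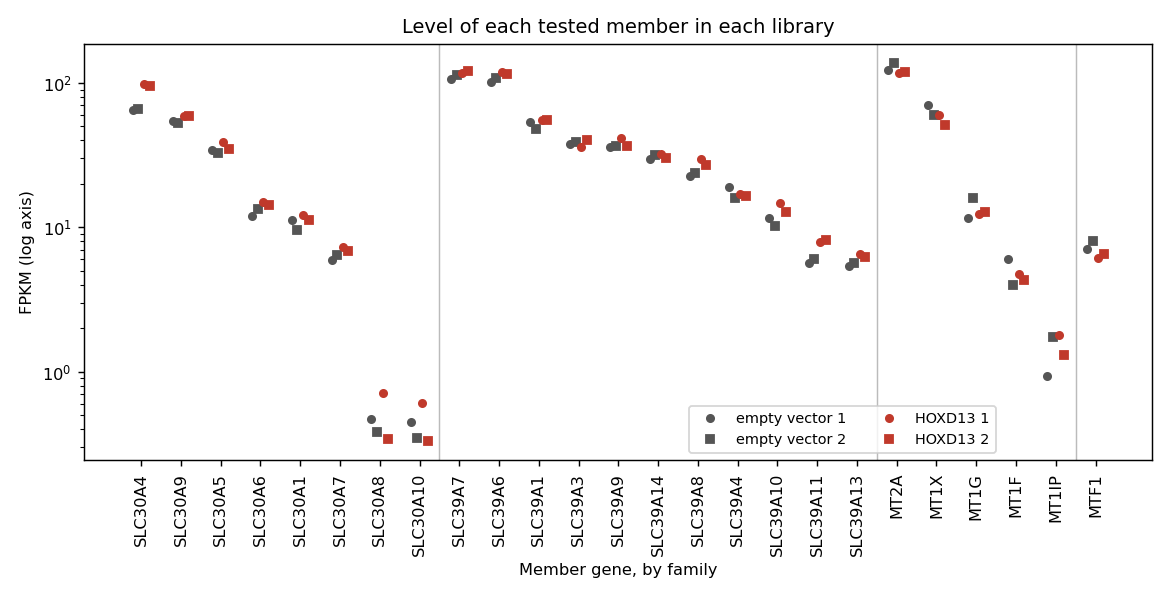
FPKM (log axis) of the 25 tested members in each of the 4 libraries, with members ordered by level within the SLC30A, SLC39A, metallothionein and MTF1 groups. Grey points are the empty-vector libraries and red points the HOXD13 libraries; SLC30A4 goes from 64.7 and 66.0 FPKM to 97.6 and 95.3 FPKM.

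SLC30A4 was the most abundant exporter gene and had the largest fold change among the tested members. Its protein loads zinc into intracellular vesicles, and in mice it is needed for zinc supply to milk. The level was 64.7 and 66.0 FPKM in the empty-vector libraries and 97.6 and 95.3 FPKM in the HOXD13 libraries. The groups lay far apart compared with the spread inside each. Their means were 65.3 ± 0.962 and 96.4 ± 1.65 FPKM (SD, n = 2 in each group), or 0.55 on the log2 scale (SE 0.0375, edgeR adjusted p = 1.12e-12). Of the 990 genes called higher with a mean of at least 100 counts, 82 had a larger log2 fold change. The rise was called in each of the alternatives, with a log2 fold change of 0.53 to 0.56 when a library was left out. The expected counts of SLC30A4 were fractional (2142, 1964, 3598 and 3432 after rounding, in the same order of libraries), so part of its reads also matched elsewhere and was assigned by estimation. In the RefSeq table SLC30A4 overlaps the antisense gene SLC30A4-AS1, not analysed here, and the transcribed pseudogene HMGN2P46. The pseudogene was at 84.8 and 92.7 counts in controls, against 148 and 109 with HOXD13. Strand use in counting is not given in the sources used here, so reads of the overlap cannot be assigned with certainty.

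The promoter of SLC30A4 is shown because this gene had the largest change. It covers 250 bases before the RefSeq transcript start (GRCh38.p14, minus strand, chr15:45522756-45523005). Capitals mark the core of the metal response element, TGCACNC or TGCGCNC on either strand, with overlapping matches counted.
SLC30A4: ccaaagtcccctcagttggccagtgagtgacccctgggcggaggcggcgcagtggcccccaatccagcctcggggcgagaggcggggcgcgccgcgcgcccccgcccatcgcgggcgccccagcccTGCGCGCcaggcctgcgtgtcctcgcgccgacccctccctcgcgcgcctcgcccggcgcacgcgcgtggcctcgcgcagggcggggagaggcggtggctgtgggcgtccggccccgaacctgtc
The window held 1 core, as did 24.8% of all 35116 promoter windows with at least 1.

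None of the other 7 tested exporters was called, and all 7 had a log2 fold change above 0, between 0.12 and 0.28. Of all 14111 genes tested, 7152 had a log2 fold change above 0. The largest of the 7 values, for SLC30A8 (0.28, SE 0.390) and SLC30A10 (0.21, SE 0.516), were smaller than their standard errors. SLC30A9, a mitochondrial zinc exporter, was at 54.8 and 52.5 FPKM with the empty vector and 59.1 and 58.6 FPKM with HOXD13, or 0.12 on the log2 scale (SE 0.0458, adjusted p = 0.0832). It was called when expression and length trends were removed (0.14, adjusted p = 0.0271) or with a mean of at least 50 counts (adjusted p = 0.0483). SLC30A5 and SLC30A6 form a heterodimer that supplies zinc to enzymes of the early secretory pathway. SLC30A5 was at 34.2 and 32.7 FPKM with the empty vector and 38.8 and 35.1 FPKM with HOXD13, or 0.13 on the log2 scale (SE 0.0615, adjusted p = 0.168). SLC30A6 was at 12.0 and 13.3 FPKM and then 14.9 and 14.3 FPKM (0.19, SE 0.0739, adjusted p = 0.0766). In both genes the HOXD13 libraries lay above the empty-vector libraries without passing the threshold. The SLC30A6 difference was called without empty-vector replicate 2 (0.27, adjusted p = 0.0384).

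SLC30A1 is the main zinc exporter of the plasma membrane and a known target of MTF1. Its level was 11.3 and 9.59 FPKM with the empty vector and 12.1 and 11.3 FPKM with HOXD13, and the groups overlapped (log2 fold change 0.14, SE 0.124, adjusted p = 0.497). The Golgi transporter gene SLC30A7 was at 5.94 to 7.25 FPKM over the 4 libraries (0.16, SE 0.0801, adjusted p = 0.174). SLC30A8, known from the insulin granules of pancreatic beta cells, and SLC30A10, a manganese exporter, stayed at 0.33 to 0.71 FPKM, with 7 to 34.2 counts per library. SLC30A3, the zinc loader of synaptic vesicles, had 1 to 8.78 counts and was not tested. SLC30A4 and SLC30A9 together made up 64.9% to 69.1% of the summed FPKM of the exporters in each library.

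Among importers, 5 of 11 tested genes rose and none was called lower. On log2(FPKM + 1), limma called none of the 5 (adjusted p from 0.0735 for SLC39A11 to 0.419 for SLC39A9), nor MTF1 (adjusted p = 0.235). SLC39A6, an importer of the plasma membrane known as an oestrogen-regulated gene in breast cancer, was at 101 and 108 FPKM with the empty vector and 118 and 116 FPKM with HOXD13. The HOXD13 libraries were the higher ones, at 117 ± 1.81 against 105 ± 5.44 FPKM (SD, n = 2), or 0.18 on the log2 scale (SE 0.0369, edgeR adjusted p = 0.000593). The call was present with each library left out. SLC39A10, whose protein pairs with that of SLC39A6, was at 11.6 and 10.2 FPKM with the empty vector and 14.7 and 12.7 FPKM with HOXD13 (0.31, SE 0.0795, adjusted p = 0.00569). Leaving out empty-vector replicate 2 gave 0.23 (adjusted p = 0.0852) and leaving out HOXD13 replicate 1 gave 0.21 (adjusted p = 0.106), so either library decides the call.

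SLC39A8, which carries manganese and cadmium as well as zinc, was at 22.5 and 23.8 FPKM with the empty vector and 29.6 and 27.1 FPKM with HOXD13. This was a rise from 23.2 ± 0.898 to 28.3 ± 1.72 FPKM (SD, n = 2), or 0.29 on the log2 scale (SE 0.0685, edgeR adjusted p = 0.00281). Without empty-vector replicate 1 the value was 0.24 (adjusted p = 0.0510). SLC39A14, the closest relative in function, which also carries iron, was at 29.6 and 31.7 FPKM with the empty vector and 32.3 and 30.3 FPKM with HOXD13. Its groups overlapped (log2 fold change -0.02, SE 0.0527, adjusted p = 0.830). The difference between these 2 genes in their response was not tested.

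SLC39A11 rose the most among the importers by fold, from 5.67 and 6.05 FPKM with the empty vector to 7.92 and 8.22 FPKM with HOXD13. Its log2 fold change was 0.45 (SE 0.131, adjusted p = 0.0157), on 116 to 192 counts per library. Leaving out empty-vector replicate 1 ended the call (0.41, adjusted p = 0.115), as did leaving out HOXD13 replicate 2 (0.42, adjusted p = 0.0762). SLC39A9, a transporter of the Golgi, was at 35.7 and 36.8 FPKM with the empty vector and 41.3 and 36.8 FPKM with HOXD13, so the groups barely separated. Its difference of 0.13 on the log2 scale (SE 0.0450, adjusted p = 0.0465) was lost when any of the 4 libraries was left out (adjusted p from 0.0664 to 0.280). The authors' length for SLC39A9 differed between libraries, from 4857 to 5358 bases, and both extremes were HOXD13 libraries, so its FPKM and its counts do not run in parallel.

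The remaining importers were not called. SLC39A7, which releases zinc from the endoplasmic reticulum, was the most abundant member of the family at 106 and 114 FPKM with the empty vector and 117 and 122 FPKM with HOXD13, or 0.10 on the log2 scale (SE 0.0424, adjusted p = 0.126). It was called after expression and length trends were removed (0.15, adjusted p = 0.0113). SLC39A1, regarded as a main zinc importer of prostate cells, was at 53.3 and 47.9 FPKM and then 55.1 and 55.5 FPKM (0.11, SE 0.0570, adjusted p = 0.200). In the RefSeq table SLC39A1 overlaps CREB3L4, and its expected counts were fractional in some libraries. SLC39A3, another plasma membrane importer, was at 37.6 and 38.9 FPKM and then 35.8 and 40.1 FPKM, with overlapping groups (-0.08, SE 0.0740, adjusted p = 0.508).

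SLC39A4, the intestinal zinc importer mutated in acrodermatitis enteropathica, was at 19.1 and 15.9 FPKM with the empty vector and 17.0 and 16.6 FPKM with HOXD13 (log2 fold change -0.06, adjusted p = 0.738). SLC39A13, needed for connective tissue, was at 5.37 to 6.51 FPKM (0.20, SE 0.151, adjusted p = 0.426). SLC39A2 had 4 counts in each control library, against 0 and 2 with HOXD13, and SLC39A5 had 1 count in the 4 libraries together. Neither was tested. A count of 0 allows up to 3 counts, or 0.352 to 0.436 CPM (counts relative to library size) in these libraries, for counting error only.

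**Figure D2:**
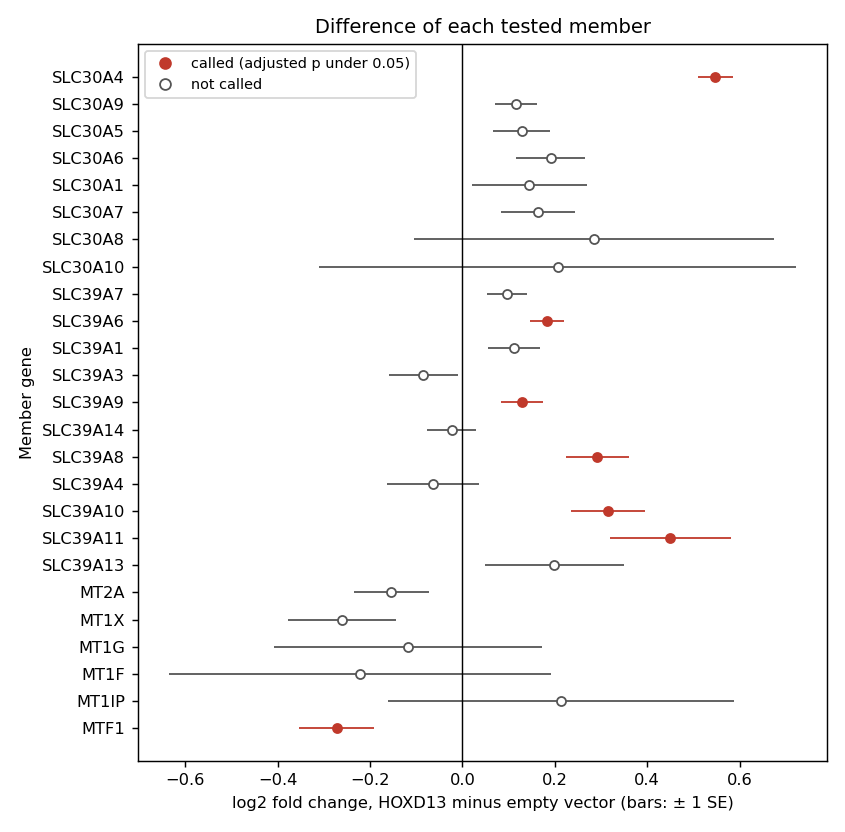
Log2 fold change of HOXD13 minus empty vector for the 25 tested members, with bars of 1 standard error on each side. Filled red points passed an adjusted p of 0.05: SLC30A4 at 0.55, SLC39A11 at 0.45, SLC39A10 at 0.31, SLC39A8 at 0.29, SLC39A6 at 0.18, SLC39A9 at 0.13 and MTF1 at -0.27.

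**Figure D3:**
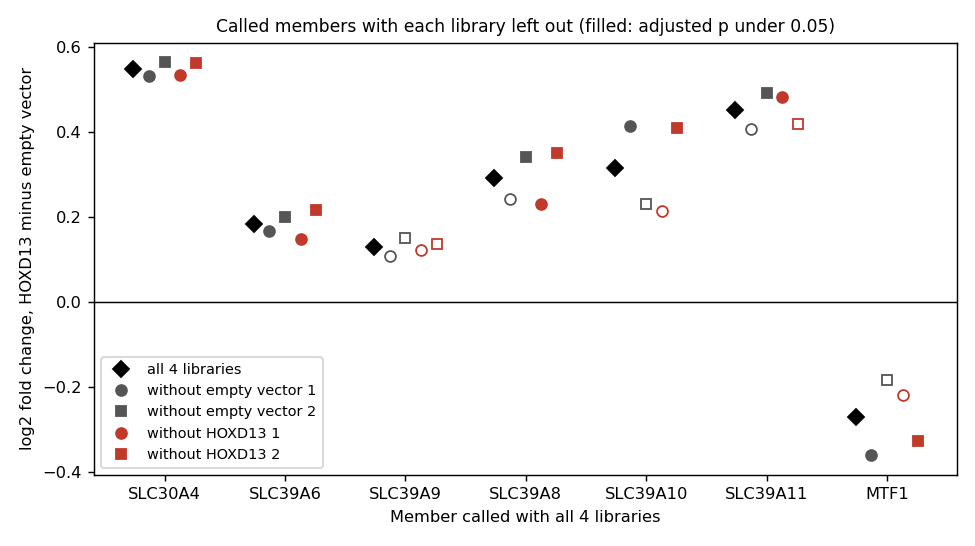
Log2 fold change of the 7 called members with all 4 libraries (black) and with each library left out, filled where the adjusted p was under 0.05. SLC30A4 and SLC39A6 stayed filled at each step, while SLC39A9 was open at every one.

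MTF1 was lower with HOXD13, at 7.13 and 8.03 FPKM with the empty vector and 6.11 and 6.54 FPKM with HOXD13. The values of the groups did not overlap. The means were 7.58 ± 0.636 and 6.33 ± 0.304 FPKM (SD, n = 2), or -0.27 on the log2 scale (SE 0.0816, edgeR adjusted p = 0.0191). MTF1 counts were nearly level, 441 and 447 in controls against 421 and 441 in overexpressing cells, so the difference arises relative to the larger HOXD13 libraries. It did not pass with empty-vector replicate 2 left out (-0.18, adjusted p = 0.256), with HOXD13 replicate 1 left out (-0.22, adjusted p = 0.122) or in the DESeq2 Wald test (-0.28, adjusted p = 0.105). MTF1 counts were fractional.

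None of the 5 tested metallothionein copies was called. The coding sequences of the most abundant copies, MT2A and MT1X, are shown because their likeness limits what can be said of single copies (GENCODE 29 transcripts MT2A-201 and MT1X-201, both genes on chromosome 16). Capitals mark the bases at which they differ.
MT2A: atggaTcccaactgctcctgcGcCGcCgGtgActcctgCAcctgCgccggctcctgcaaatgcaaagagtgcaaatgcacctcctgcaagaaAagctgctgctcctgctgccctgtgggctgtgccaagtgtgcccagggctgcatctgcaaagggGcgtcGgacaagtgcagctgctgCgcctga
MT1X: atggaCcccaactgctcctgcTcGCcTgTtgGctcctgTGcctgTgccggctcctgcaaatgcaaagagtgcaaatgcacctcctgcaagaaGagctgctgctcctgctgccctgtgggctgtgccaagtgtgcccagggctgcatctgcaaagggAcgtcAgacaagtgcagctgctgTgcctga
The pair differed at 14 of 186 bases, an identity of 92.5%, and shared an unbroken run of 63 bases. Each holds 20 codons TGC or TGT, the codons for cysteine, among 61 before the stop. MT1X and MT1G shared a run of 96 bases. Expected counts were fractional for 6 of the 7 copies, as for 16 of the 30 members, so reads were divided among copies by estimation.

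MT2A was the most abundant copy, at 123 and 138 FPKM with the empty vector and 117 and 118 FPKM with HOXD13. The HOXD13 libraries lay below the others, and the log2 fold change was -0.15 (SE 0.0814, edgeR adjusted p = 0.216). MT1X was at 70.7 and 60.4 FPKM with the empty vector and 59.5 and 51.4 FPKM with HOXD13 (-0.26, SE 0.117, adjusted p = 0.133). Its groups were separated by less than the spread inside either. MT1G was at 11.5 and 15.9 FPKM and then 12.4 and 12.7 FPKM (-0.12, SE 0.291), and MT1F was at 6.08 and 3.98 FPKM and then 4.76 and 4.35 FPKM (-0.22, SE 0.413). Both overlapped between groups, on 11.7 to 40.0 counts per library. MT1F changed sign without empty-vector replicate 1 (0.11) and MT1G without empty-vector replicate 2 (0.13). The pseudogene transcript MT1IP had 14.3 to 30.5 counts (0.21, SE 0.375). The pseudogenes MT1DP, with 1 to 8 counts, and MT1JP, with 1.02 counts in HOXD13 replicate 1 only, were not tested. Other metallothionein genes such as MT1E and MT1M had no entry under these symbols in the deposited table, and were not analysed here.

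The sum of the counts of the copies does not depend on how reads were divided among them. It came to 721 and 673 counts in controls, against 755 and 702 with HOXD13. In summed FPKM this was 214 and 220 against 199 and 190, with both HOXD13 libraries the lower ones. Summed FPKM does depend on the division of reads, because lengths differ between copies (466 bases for MT2A, 2005 for MT1IP). The log2 fold change of the summed counts was -0.16 (SE 0.0618) and was not called (edgeR adjusted p = 0.0663). With expression and length trends removed from each library it was -0.05 (adjusted p = 0.684). Metallothionein transcripts are short, with authors' lengths of 376 to 468 bases for all copies but MT1IP.

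MT2A took 57.0% and 61.5% of the metallothionein counts in the empty-vector libraries and 57.9% and 61.5% in the HOXD13 libraries. MT1X took 33.0% and 27.1%, and then 29.5% and 26.8%. These shares differed as much between the replicates of a group as between the groups. The shares are given as a description and were not tested.

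**Figure D4:**
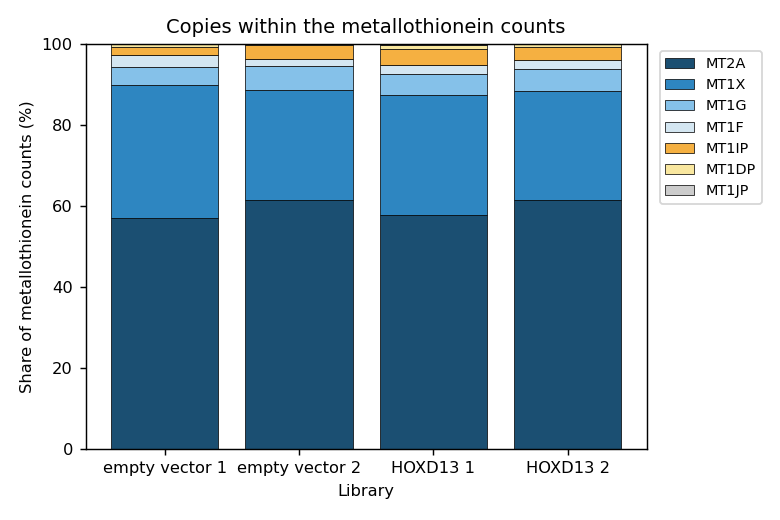
Share of each copy in the summed metallothionein counts (%) in each of the 4 libraries, stacked to 100. MT2A holds 57.0% to 61.5% and MT1X 26.8% to 33.0% in every library, with MT1G, MT1F and the pseudogenes making up the rest.

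The promoters of MT2A and MT1X are shown beside that of the exporter SLC30A1 because these genes are textbook targets of MTF1, the member that fell. Each covers 250 bases before the RefSeq transcript start (GRCh38.p14), at chr16:56608334-56608583 on the plus strand for MT2A, chr16:56682220-56682469 on the plus strand for MT1X and chr1:211579162-211579411 on the minus strand for SLC30A1. Capitals mark the metal response core as above.
MT2A: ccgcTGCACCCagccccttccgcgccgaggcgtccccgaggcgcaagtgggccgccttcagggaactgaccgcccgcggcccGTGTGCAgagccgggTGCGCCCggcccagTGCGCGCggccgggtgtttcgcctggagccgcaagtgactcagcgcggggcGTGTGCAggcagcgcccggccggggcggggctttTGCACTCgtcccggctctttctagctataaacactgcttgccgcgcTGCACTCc
MT1X: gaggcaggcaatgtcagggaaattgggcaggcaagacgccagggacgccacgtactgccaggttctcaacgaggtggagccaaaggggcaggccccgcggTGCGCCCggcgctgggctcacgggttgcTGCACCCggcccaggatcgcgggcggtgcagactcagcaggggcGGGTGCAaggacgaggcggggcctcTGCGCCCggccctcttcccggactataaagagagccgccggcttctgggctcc
SLC30A1: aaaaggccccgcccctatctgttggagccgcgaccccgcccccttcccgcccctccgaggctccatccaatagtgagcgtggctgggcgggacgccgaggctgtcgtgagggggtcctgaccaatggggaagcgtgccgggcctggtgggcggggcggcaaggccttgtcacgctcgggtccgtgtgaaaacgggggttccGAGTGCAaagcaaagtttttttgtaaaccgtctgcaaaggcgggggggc
MT2A held 7 cores and MT1X held 4, while at least 4 cores were found in 130 of 35116 promoter windows (0.370%). SLC30A1 held 1. Promoter windows were used for 22 of the 30 members, and of the 19 transporters among them 9 held at least 1 core in a window. Some members had more than 1 window. Counted by window, 12 of 31 member windows (38.7%) held at least 1 core, against 24.8% of all windows. Windows were matched by gene ID, but those on the chromosome of SLC30A8, SLC39A4 and SLC39A14 were left out for members. Whether these transporters hold a core was therefore not examined. The same exclusion was not made in the 35116 windows. A match is a description of the letters and does not show binding.

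Genes of neighbouring pathways were counted in the same fit, and their counts are read against the 7.91% of all tested genes called higher and the 8.11% called lower. Among genes with a mean of at least 100 counts these shares were 9.92% and 11.1%. Most lists were deeper than all genes tested, whose median mean count was 248. It was 506.5 for metal and oxidative stress, 315 for copper, 1166.5 for iron and manganese, 1266.8 for citrate and 91.8 for other zinc routes. Of 13 tested genes known to respond to metals or oxidative stress, 6 were lower, 0 were higher and 7 were not called, with a median log2 fold change of -0.23. HSPA8, a constitutive HSP70 chaperone, fell from a mean of 990 to 794 FPKM (log2 fold change -0.33, adjusted p = 2.99e-11), and the thioredoxin reductase gene TXNRD1 from 94.7 to 81.5 FPKM (-0.23, adjusted p = 3.72e-05). CEBPA, NQO1, HSPA1A and HSPA1B were the other genes called lower, and the last 2 are near-identical copies whose reads can be divided wrongly. Without empty-vector replicate 1, 3 of the 13 genes were called lower, the DESeq2 Wald test called 4 and limma called 2, 1 and 0 under its 3 settings (log2(FPKM + 1), log2(FPKM + 0.1), and log2(FPKM + 1) without the filter on low values). HMOX1, which encodes haem oxygenase and responds strongly to cadmium, had means of 4.24 FPKM in controls and 4.51 FPKM with HOXD13 (0.08, adjusted p = 0.883).

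Of 14 tested copper handling genes 1 was higher, 2 were lower and 11 were not called, with a median log2 fold change of -0.01. The share higher, 7.14%, is close to that of all genes tested. The copper importer gene SLC31A1 rose from a mean of 38.1 to 44.5 FPKM (0.21, adjusted p = 0.00146). SCO1 and SCO2, which deliver copper to cytochrome c oxidase, were called lower (-0.26 and -0.32), and both calls were lost when any library was left out. The SLC31A1 call was lost in each limma setting. Of 18 tested iron and manganese handling genes 4 were higher (22.2%), 3 lower and 11 not called (median 0.04). The metalloreductase gene STEAP2 rose from 119 to 160 FPKM (0.47, adjusted p = 3.81e-11), and ATP2C1, a Golgi calcium and manganese pump, from 34.2 to 46.0 FPKM (0.38, adjusted p = 2.39e-06). Leaving out empty-vector replicate 1 left 2 of these genes called higher, and leaving out empty-vector replicate 2 left 1 called lower. The DESeq2 Wald test called 2 higher and 3 lower, and the limma settings called 2, 1 and 0 higher and 0 lower.

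Normal prostate epithelium accumulates citrate together with zinc. Of 13 tested genes of citrate metabolism 1 was higher, 5 were lower and 7 were not called, with a median log2 fold change of -0.11. The lower genes of largest change were PC, pyruvate carboxylase (-0.25, adjusted p = 0.0365), GOT2, mitochondrial aspartate aminotransferase (-0.25, adjusted p = 0.000176), and IDH3A, an isocitrate dehydrogenase subunit (-0.24, adjusted p = 0.0240). ANKH, a citrate and pyrophosphate exporter, rose (0.24, adjusted p = 0.000454). The share higher, 7.69%, is close to that of all genes tested, while the 5 of 13 called lower stand against 8.11% of all genes tested. Without empty-vector replicate 2, and in the DESeq2 Wald test, 2 of the 13 genes were called lower. None of the 13, ANKH included, was called in any of the 3 limma settings. Of 5 tested genes of other zinc routes, CNNM4 was higher (0.31, adjusted p = 0.00808) and 4 were not called. The CNNM4 call was absent without empty-vector replicate 1, in the DESeq2 Wald test and in each limma setting. Adjusted p-values are from the edgeR quasi-likelihood test.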

How the data were processed

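Per the submitters' processing notes, the authors used RSEM and Bowtie2, and both hg18 and hg19 appear there. Neither tool versions nor which build served which step is stated in the sources used here. The deposited tables hold expected counts, lengths and FPKM per gene, per the file headers. FPKM in the table of all libraries were the same as in the library tables.

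The members and the gene lists were chosen with earlier results of these data known. Genes without an entry in a library's table were set to 0 there, and expected counts were rounded. Rows without a gene ID, 4 in all and at most 0.00100% of counts, were left out. Tests used edgeR 4.0.16 (R 4.3.3, robust quasi-likelihood fit, TMM, filterByExpr) on 14111 genes with Benjamini-Hochberg adjustment. The biological coefficient of variation was 2.70%. SE was derived from the fold change and the F statistic, as |log2 fold change|/√F. Counts with a remainder above 0.005 were called fractional. Replicates differed by more than sampling noise (chi-square per degree of freedom 1.57 and 1.76, against 5.24 to 5.95 between groups). The edgeR and limma fits were first run on simulated counts with known changes.

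Named genes were all called members, MTF1, the 4 most abundant of each family, the 3 uncalled members with the smallest p and up to 4 called genes of each other list by size of change. The remaining members are given by value or range. HMOX1, TXNRD1, NQO1, VWF and KRT14 were named after their values were seen. Alternatives used DESeq2 1.42.0, limma 3.58.1 on log2(FPKM + 1) and log2(FPKM + 0.1), and mgcv 1.9.3 for the trends. Promoters and gene positions came from RefSeq (GRCh38.p14) and transcripts from GENCODE 29, matched by gene ID or symbol. Some single-gene results are not reported here.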

Additional observations from a re-analysis of the deposited data

How the results depend on the processing

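SLC30A4 was called under all 14 alternatives. Limma on FPKM called it alone: 1 member was higher and 0 lower on log2(FPKM + 1), on log2(FPKM + 0.1) and without the filter on low values, where all genes called numbered 426, 395 and 48. The cause was not tested. The DESeq2 Wald test called 4 members higher and 0 lower among the 16 with an adjusted p, and 1049 genes in all. An adjusted p under 0.01 left 4 members higher and 0 lower. With libraries left out, 3 to 5 members were higher, 0 to 1 lower and 1503 to 2019 genes called in all. The fewest were without empty-vector replicate 1. MT1F ranged from -0.47 to 0.11 and MT1G from -0.34 to 0.13 over these. With trends removed, 8 members were higher. Same-numbered replicates showed no pairing (correlation of deviations 0.0227), and with the replicate number as a block 6 members were higher, 1 lower, 2523 genes called and the summed metallothioneins at -0.16 (adjusted p = 0.0517). Under the alternatives the summed metallothioneins stayed below 0 and uncalled, from -0.20 to -0.05. In the DESeq2 Wald test members without an adjusted p, and single copies after summing, gave no value. Members under about 40 counts per library have standard errors of 0.291 to 0.516, which limits what was detectable there.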
